A study of Homo sapiens with 6 samples.

Results

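The 55 genes described here encode the nuclear pore complex and the soluble machinery that moves proteins and RNA through it: 29 nucleoporins and 26 transport receptors and Ran cycle proteins. They were chosen by gene name, with earlier results of these data known. Each of the 55 names matched exactly 1 of the 62754 rows of the deposited tables. The cells are HUDEP-2, an immortalised human erythroid progenitor line that was made from umbilical cord blood cells with inducible papillomavirus oncogenes. Both groups were kept in serum-free culture with 50 ng per ml of stem cell factor, 3 units per ml of erythropoietin, 1 µg per ml of doxycycline and 1e-06 M dexamethasone. Selection in puromycin (2 µg per ml) began 24 h after infection and lasted 48 h in both. One group was transduced with a lentiviral shRNA against MEN1, the gene of the MLL1 complex subunit menin (n = 3), and the other with a non-targeting shRNA (n = 3), with harvest at 72 h. The titles number the libraries as biological replicates, and the labels name 1 MEN1 hairpin, so effects of MEN1 loss cannot be told apart from other effects of the same hairpin.

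The nuclear pore is a ring-shaped channel in the nuclear envelope. Its scaffold is built from the Y complex and the inner ring, membrane nucleoporins anchor it, and nucleoporins rich in phenylalanine-glycine repeats fill the channel and extend as cytoplasmic filaments and a nuclear basket. Importins bind cargo in the cytoplasm and exportins bind it in the nucleus, and the direction is set by Ran, which is loaded with GTP by RCC1 on chromatin and made to hydrolyse it by RANGAP1 at the cytoplasmic face. Maturing erythroblasts condense their chromatin, export histones and finally expel the nucleus, and XPO7 is the exportin best known for high expression at that stage.

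Depth inferred from the deposited values was 18400000 to 35800000 read pairs per library. The targeted gene, MEN1, stood at 6.29, 6.44 and 6.88 TPM in the 3 MEN1 shRNA libraries and at 41.2, 39.6 and 37.1 TPM in the 3 controls, so 16.6% of the control level remained (log2 change -2.42 ± 0.0803 SE, adjusted p 8.5e-06, limma). All 9 erythroid markers were present, with summed levels of 75300 to 83100 TPM in the MEN1 shRNA libraries and 44900 to 49100 TPM in the controls. Of the marker lists of other cell types, the 5 megakaryocyte genes summed to 16.6 to 21.3 against 31.8 to 36.7 TPM, nearly all of it ITGA2B, with PF4 and PPBP at 0. The 6 myeloid genes summed to 28.8 to 37.2 against 30.0 to 38.3 TPM, nearly all of it SPI1, and the 4 mast cell genes to 421 to 504 against 576 to 747 TPM, nearly all of it TPSAB1. The 5 lymphocyte genes summed to at most 1.04 TPM and the 4 stromal genes to at most 4.37 TPM, the latter in control replicate 2 alone, with COL1A1 at 2.24 TPM. MEN1 shRNA replicate 1 lay nearest to the controls, with correlations of 0.9525 to 0.9542 against them over all tested genes, where MEN1 shRNA replicates 2 and 3 had 0.9338 to 0.9369.

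Transcripts of the pore and of its transport receptors were lower with the MEN1 shRNA for most of the members. Of the 55 genes, 34 fell, 2 rose and 19 did not pass the threshold, an adjusted p of 0.05 in limma over the 14294 genes that reached 1 TPM in 3 or more libraries. All 55 members passed that filter. Among all tested genes 53.6% passed the threshold in either direction, 31.5% lower and 22.1% higher, against 61.8% of the members lower and 3.64% higher. The falls were modest in size. The median log2 fold change of the members, taken on log2(TPM + 1), was -0.25 against -0.07 for all tested genes, and only POM121 and IPO4 changed by 2-fold or more. In 34 members every MEN1 shRNA library lay below every control and in 3 every one lay above, shares to be read against 35.9% and 25.8% of all tested genes. Fewer transcripts per cell and fewer cells of a given stage cannot be told apart in these bulk samples. P-values measure the spread between the 3 numbered libraries of a group.

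**Figure D1:**
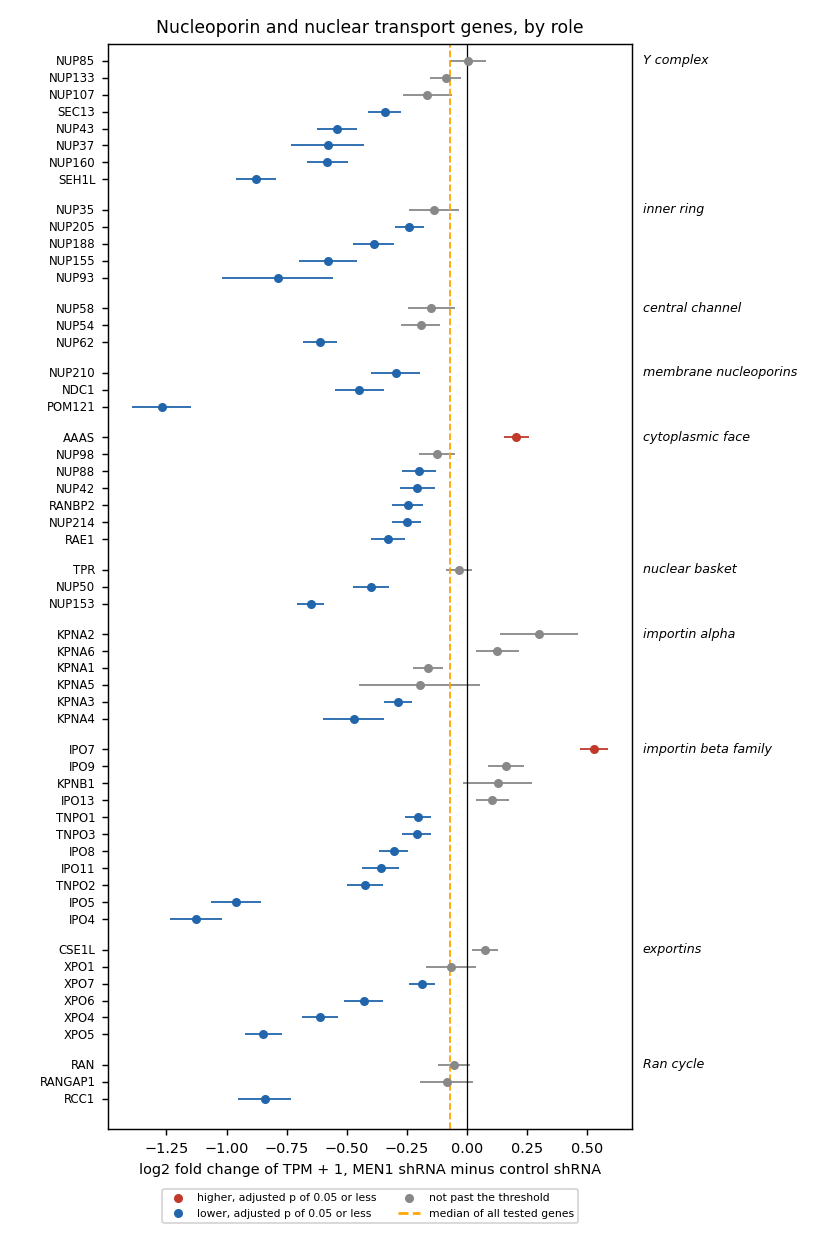
Log2 fold change of TPM + 1 (MEN1 shRNA minus control shRNA, 3 libraries each) for the 55 members in 10 role classes, with bars of 1 standard error from limma. The points run from -1.27 for POM121 to 0.53 for IPO7, and 46 of the 55 lie below 0.

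The choice of scaling bears on the weaker falls. TPM is a share of the library, and with median-of-ratios scaling the median log2 change of all tested genes was 0.0078, with 25 members lower and 4 higher. NUP205, NUP210, NUP214, NUP88, RANBP2, NUP42, TNPO1, TNPO3 and XPO7 were the members that no longer passed as lower, and IPO9 and CSE1L joined AAAS and IPO7 as higher. No member past the threshold changed direction under any alternative. Within the MEN1 shRNA group the falls were not equally deep: of the 34 genes that fell, MEN1 shRNA replicate 1 held the highest of the 3 values in 21, replicate 3 in 10 and replicate 2 in 3.

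RefSeq promoters (build GRCh38.p14, 300 bases, 250 before and 50 after the start site) were available for 50 of the members, with no entry for NUP43, KPNB1, KPNA4, KPNA5 and XPO7. They were searched on both strands for CACGTG, the E-box bound by MYC and related factors, and for AGATAA and TGATAA, forms of the GATA motif that differ in their first letter, so that no match counts for both. CACGTG was in the promoters of 7 members (14.0%) and in 7.26% of the 35116 promoters of the table. Each member counts with 1 promoter, the one nearest to the start of its gene row. The 35116 hold further promoters of some genes and were not limited to the tested genes. These shares and those below are thus over unlike sets, and the differences were not tested. The 7 were NUP188, NUP50, KPNA3, TNPO2 and IPO4, which fell, IPO7, which rose, and RAN, which did not pass the threshold. AGATAA was found in 1 member, RANBP2 (2.00%, against 10.3% of all promoters), and TGATAA in 0 of the 50 (against 7.53%). The 4 promoters below are shown because they hold the same letters in genes with different responses, with CACGTG in capitals, which begins 29 bases before the start site in IPO4, 174 in NUP50, 138 in IPO7 and 102 in RAN.
IPO4, chr14:24188767-24189066, minus strand: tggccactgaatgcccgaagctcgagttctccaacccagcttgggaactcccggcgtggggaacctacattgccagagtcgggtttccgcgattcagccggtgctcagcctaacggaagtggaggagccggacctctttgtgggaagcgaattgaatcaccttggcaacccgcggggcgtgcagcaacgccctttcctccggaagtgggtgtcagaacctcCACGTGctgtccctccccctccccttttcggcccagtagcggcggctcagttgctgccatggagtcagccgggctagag
NUP50, chr22:45163675-45163974, plus strand: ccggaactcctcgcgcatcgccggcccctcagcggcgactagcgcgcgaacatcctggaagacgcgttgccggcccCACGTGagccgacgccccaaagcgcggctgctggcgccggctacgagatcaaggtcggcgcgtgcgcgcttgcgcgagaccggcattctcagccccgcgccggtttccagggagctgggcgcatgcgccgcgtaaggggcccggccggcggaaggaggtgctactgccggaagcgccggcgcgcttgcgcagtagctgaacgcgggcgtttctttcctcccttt
IPO7, chr11:9384402-9384701, plus strand: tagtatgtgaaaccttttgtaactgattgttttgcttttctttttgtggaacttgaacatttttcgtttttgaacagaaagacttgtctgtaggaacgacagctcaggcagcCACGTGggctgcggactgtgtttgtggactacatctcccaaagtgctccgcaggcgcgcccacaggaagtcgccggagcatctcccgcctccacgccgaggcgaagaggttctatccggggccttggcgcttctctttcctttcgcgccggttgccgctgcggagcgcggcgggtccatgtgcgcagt
RAN, chr12:130871816-130872115, plus strand: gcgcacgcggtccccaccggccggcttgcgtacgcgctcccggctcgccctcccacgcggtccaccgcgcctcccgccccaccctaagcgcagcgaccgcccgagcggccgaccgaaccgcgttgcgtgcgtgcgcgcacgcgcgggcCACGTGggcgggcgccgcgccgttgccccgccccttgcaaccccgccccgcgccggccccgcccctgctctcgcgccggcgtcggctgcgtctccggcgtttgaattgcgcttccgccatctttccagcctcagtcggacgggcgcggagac
A match in these windows is a description of sequence and not a binding site.

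The Y complex, the main scaffold of the outer rings, was lower in 5 of its 8 genes and higher in none. That is 62.5% lower, against 31.5% of all tested genes. SEH1L, a Y complex subunit that also serves in the GATOR complex of amino acid sensing, had the deepest fall of the nucleoporin scaffold (ENSG00000085415, chromosome 18, 12947133 to 12987536, plus strand). Its level was 63.3, 54.6 and 66.9 TPM in the MEN1 shRNA libraries and 113, 110.0 and 118 TPM in the controls, groups that were far apart (log2 change -0.88 ± 0.0834 SE, adjusted p 1.3e-04). NUP160, a long structural subunit, stood at 62.5, 52.0 and 51.4 against 79.9, 85.7 and 83.2 TPM (log2 change -0.58 ± 0.0857 SE, adjusted p 9.3e-04). Here MEN1 shRNA replicate 1 was the highest of its group and still below every control. For NUP37, a beta-propeller subunit that binds NUP160, the values were 66.8, 46.2 and 44.1 against 81.3, 79.7 and 71.4 TPM, with MEN1 shRNA replicate 1 close to the controls (log2 change -0.58 ± 0.151 SE, adjusted p 0.0138). NUP43 (log2 fold change -0.54) and SEC13, a subunit shared with the COPII vesicle coat (-0.34), also fell, with adjusted p-values of 0.00120 and 0.00424. NUP107, NUP133 and NUP85, other scaffold subunits, did not pass the threshold, at 88.9%, 93.9% and 100.4% of the control level. NUP85 had 71.9 ± 4.92 TPM against 71.6 ± 4.66 TPM (SD, n = 3 each). Without a filter on low genes the adjusted p of NUP37 was 0.0621.

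The inner ring, which links the outer rings to the channel, was lower in 4 of 5 genes (80%, against 31.5% of all tested genes). NUP155 fell from 65.1 ± 0.874 to 43.8 ± 8.29 TPM (log2 change -0.58, adjusted p 0.00501), with 37.9, 53.3 and 40.2 TPM in the MEN1 shRNA libraries and 64.6, 64.7 and 66.1 TPM in the tightly grouped controls. The deposited coverage of NUP155, not scaled for depth, was 104.8, 102.2 and 77.1 against 125.2, 155.3 and 116.5. Relative to the read pairs of each library, its groups lay closer together in coverage than in TPM. NUP188 stood at 77.7, 63.8 and 68.3 against 85.7, 93.8 and 95.4 TPM (log2 change -0.39, adjusted p 0.00646), and NUP205 had a smaller fall (log2 change -0.24, adjusted p 0.0124). NUP93, the organiser of the inner ring, had the largest mean change of the class but also the widest spread in TPM. Its level was 34.9, 31.6 and 51.3 TPM after MEN1 knockdown and 72.7, 83.8 and 49.3 TPM in the controls. MEN1 shRNA replicate 3 lay above control replicate 3, so the groups overlap in TPM (log2 change -0.79 ± 0.230 SE, adjusted p 0.0218). The deposited coverage of NUP93, not scaled for depth, was 24.5, 25.5 and 16.7 against 40.3, 52.9 and 37.1. Relative to the read pairs of each library this coverage did not overlap between the groups, with MEN1 shRNA replicate 3 the lowest. Why it differs from TPM was not tested. The NUP93 call was lost without MEN1 shRNA replicate 1 (adjusted p 0.0664), MEN1 shRNA replicate 2 (0.0730), control replicate 1 (0.0675) or control replicate 2 (0.0720), and without a filter on low genes (0.0937). NUP35, a small membrane-binding subunit, did not pass the threshold (log2 change -0.14, adjusted p 0.311).

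All 3 membrane nucleoporins fell, where 31.5% of all tested genes did. POM121 (log2 fold change -1.27) changed most of all 55 members and is encoded at chromosome 7, 72879349 to 72951440, plus strand (ENSG00000196313). Its protein anchors the pore in the nuclear membrane and takes part in pore assembly after mitosis. It was at 33.1, 23.6 and 24.4 TPM in the MEN1 shRNA libraries and at 65.1, 65.3 and 67.3 TPM in the controls, 41.0% of the control level (SE 0.123, adjusted p 1.4e-04). POM121 has near-identical copies among which reads may be divided either way. The row named POM121C fell from 55.8 ± 0.395 to 24.3 ± 2.55 TPM and the row named POM121B from 16.0 ± 0.832 to 6.65 ± 0.798 TPM, to 43.6% and 41.4% of the control level. The sum of the 3 rows, an addition chosen after the data were seen and less dependent on how reads were split, was 67.8, 52.9 and 53.2 TPM against 136, 138 and 139 TPM (log2 fold change -1.24, SE 0.0986, adjusted p 6.7e-05). NDC1, which works with POM121 in anchoring, fell from 55.3 ± 2.00 to 40.5 ± 5.80 TPM (log2 change -0.45, adjusted p 0.00708). Its values were 47.1, 38.2 and 36.3 TPM against 53.5, 55.1 and 57.5 TPM. NUP210 had 83.4, 74.3 and 76.7 TPM after MEN1 knockdown and 87.9, 89.8 and 112 TPM in the controls, with control replicate 3 well above the other two (log2 change -0.30, adjusted p 0.0402). That call was lost in 13 of 20 alternatives, among them leaving out control replicate 3 (log2 fold change -0.19, adjusted p 0.0864), MEN1 shRNA replicate 2 (adjusted p 0.117) or MEN1 shRNA replicate 3 (0.0976).

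**Figure D2:**
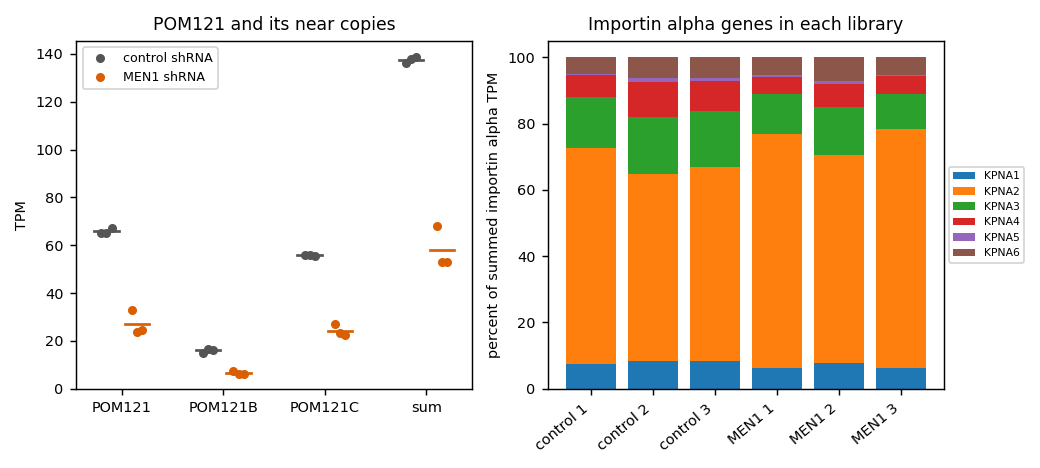
Left, TPM of the rows named POM121, POM121B and POM121C and of their sum in each library (points) with group means (lines), where each MEN1 shRNA point lies below each control point. Right, percent of the summed importin alpha TPM held by each KPNA gene in each library, with KPNA2 the largest part at 56.4% to 72.2%.

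In the central channel, NUP62 fell and its partners NUP54 and NUP58 did not pass the threshold. The share lower, 33.3%, is near the 31.5% of all tested genes. NUP62, the repeat-bearing core of the channel complex (ENSG00000213024, chromosome 19, 49906825 to 49929764, minus strand), had 110.0, 110.0 and 117 TPM against 163, 165 and 189 TPM (log2 change -0.61 ± 0.0714 SE, adjusted p 3.1e-04). The groups did not overlap. NUP54 stood at 70.8 ± 3.72 against 81.2 ± 7.34 TPM (log2 change -0.19, adjusted p 0.0823), and passed as lower without control replicate 1 (0.0208). NUP58 had a log2 fold change of -0.15 (adjusted p 0.236). NUP62 overlaps ATF5 on the opposite strand, as NUP43 does PCMT1 and NUP88 does RABEP1, and the sources used here do not say whether strand entered the quantification.

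The nuclear basket faces chromatin and receives mRNA for export. NUP153, which links the basket to the ring and binds importins (ENSG00000124789, chromosome 6, 17615035 to 17706925, minus strand), had 96.0, 91.9 and 96.7 TPM against 143, 154 and 152 TPM (log2 change -0.65 ± 0.0557 SE, adjusted p 8.7e-05), the lowest adjusted p of the 55 members. NUP50, a mobile partner of NUP153 that helps release importin alpha cargo, stood at 75.0, 67.1 and 79.3 against 100.4, 97.2 and 94.7 TPM (log2 change -0.40 ± 0.0736 SE, adjusted p 0.00275). Both fell with no overlap between the groups, 66.7% of the class lower against 31.5% of all tested genes. TPR, the long coiled-coil protein that forms the basket fibres, was at 119, 117 and 120.3 and 116, 125 and 123 TPM, values that interleave (log2 change -0.03, adjusted p 0.650).

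At the cytoplasmic face 5 of 7 genes (71.4%, against 31.5% of all tested genes) fell by small amounts, with log2 fold changes from -0.33 to -0.20. RAE1, an mRNA export factor bound to NUP98, had 43, 38.2 and 38.9 TPM against 48.8, 50.9 and 51.5 TPM (log2 change -0.33, adjusted p 0.00511). NUP214, a filament nucleoporin that binds exportin complexes, stood at 34.9, 33.3 and 32.8 against 40.6, 39.9 and 40.1 TPM (log2 change -0.25, adjusted p 0.00981). RANBP2, the large filament protein that binds Ran and acts as a SUMO ligase, was at 69.3, 65.1 and 71.0 and 78.3, 80.7 and 85.2 TPM (log2 change -0.25, adjusted p 0.0123). In all 3 of these genes the groups did not overlap, with means at 79.3%, 83.7% and 84.1% of the control level. RANBP2 shares sequence with the RGPD genes, and its log2 fold change with their rows added, a sum chosen after the data were seen, was -0.19 (adjusted p 0.0288). NUP88 and NUP42, partners of NUP214 and of the export factor GLE1, passed narrowly (adjusted p 0.0451 and 0.0438). Each of these calls was lost in 5 of the 6 fits that leave out 1 library, at adjusted p-values of 0.0594 to 0.139 for NUP88 (it held without MEN1 shRNA replicate 2) and 0.0657 to 0.141 for NUP42 (it held without MEN1 shRNA replicate 1). NUP98, an mRNA export nucleoporin, did not pass (log2 change -0.12, adjusted p 0.192). AAAS, which encodes aladin, a nucleoporin mutated in triple A syndrome, was the nucleoporin that rose, from 95.3, 91.2 and 94.7 TPM in the controls to 111, 107 and 107 TPM (log2 change 0.21 ± 0.0529 SE, adjusted p 0.0129).

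Summed over the 29 nucleoporins, TPM reached 1939, 1802 and 1834 after MEN1 knockdown against 2309, 2396 and 2434 in the controls, 78.1% of the control level. By class the sum stood at 66.9% of control for the membrane nucleoporins, 74.9% for the inner ring, 75.1% for the Y complex, 75.8% for the central channel, 78.0% for the basket and 91.9% for the cytoplasmic face. These sums are descriptions, and differences between classes were not tested.

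**Figure D3:**
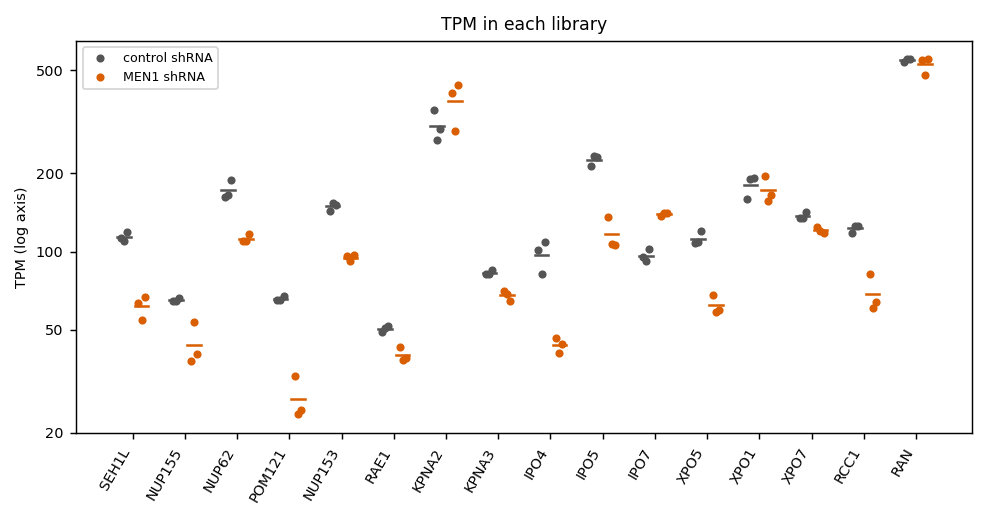
TPM on a log axis of 16 members in each library (points) with group means (lines), controls in grey and MEN1 shRNA in orange. SEH1L, POM121, IPO4, IPO5, XPO5 and RCC1 are separated by wide gaps, IPO7 is separated upward, and KPNA2, XPO1 and RAN overlap.

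Importin alpha proteins are adaptors that read the classical nuclear localisation signal and hand cargo to importin beta. Of the 6 genes, 2 fell and none rose, a share of 33.3% lower that is near the 31.5% of all tested genes. KPNA2, the most abundant of them and a gene that cycles with cell division (ENSG00000182481, chromosome 17, 68035636 to 68047364, plus strand), was at 408, 293 and 440.0 TPM after MEN1 knockdown against 352, 269 and 297 TPM, with MEN1 shRNA replicate 2 inside the control range (log2 change 0.30 ± 0.161 SE, adjusted p 0.156). It did not pass the threshold, and passed as higher without MEN1 shRNA replicate 2 (log2 fold change 0.48, adjusted p 0.0158). KPNA3 stood at 70.2, 68.5 and 64.7 against 81.9, 81.9 and 84.9 TPM (log2 change -0.29, adjusted p 0.00428), and its close relative KPNA4 at 29.9, 31.8 and 32.5 against 35.5, 51.1 and 46.5 TPM (log2 change -0.47, adjusted p 0.0163). Both fell in TPM with no overlap, KPNA4 with a wide spread among the controls. The KPNA4 call was lost without control replicate 3 (adjusted p 0.0532) and without a filter on low genes (0.0635). The deposited coverage of KPNA4, not scaled for depth, was 59.8, 67.6 and 47.2 against 78.5, 84.4 and 55.3. Relative to the read pairs of each library this coverage overlapped between the groups. Why it differs from TPM was not tested. KPNA1 (log2 fold change -0.16), KPNA5 (-0.20) and KPNA6 (0.13), which form another subfamily, did not pass. KPNA5 was the least abundant member of the 55, at 1.95 to 4.62 TPM and a mean coverage of 3.00 to 7.69 reads per base. KPNA2 made up 70.7%, 62.7% and 72.2% of the summed importin alpha TPM after MEN1 knockdown, against 65.4%, 56.4% and 58.6% in the controls, ranges that overlap.

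The importin beta family binds cargo directly or through adaptors, and 7 of its 11 genes fell while 1 rose. These are 63.6% lower and 9.09% higher, against 31.5% and 22.1% of all tested genes. IPO4, an importer of histones and ribosomal proteins (ENSG00000196497, chromosome 14, 24180219 to 24188869, minus strand), had 46.4, 40.8 and 43.99 TPM against 101, 82.0 and 109 TPM, 44.96% of the control level (log2 change -1.13 ± 0.109 SE, adjusted p 1.4e-04). An unnamed gene row on the same strand, ENSG00000259522, overlaps nearly all of IPO4, and it stood at 14.7, 11.7 and 12.2 TPM against 7.36, 10.9 and 0.326 TPM. With this row added, the log2 fold change of IPO4 was -0.86 (adjusted p 1.7e-04). IPO5, which carries ribosomal proteins and histones (ENSG00000065150, chromosome 13, 97953658 to 98024296, plus strand), stood at 136, 107 and 106 against 213, 234 and 231 TPM (log2 change -0.96 ± 0.103 SE, adjusted p 2.1e-04). Its fall left 51.5% of the control level, with MEN1 shRNA replicate 1 the highest of its group. IPO7, another importer of ribosomal proteins (ENSG00000205339, chromosome 11, 9384652 to 9448127, plus strand), went the other way, at 137, 141 and 141 TPM against 95.4, 91.8 and 102 TPM (log2 change 0.53 ± 0.0591 SE, adjusted p 2.6e-04). These 3 importins of related cargo thus differed in direction, and the difference among them was not tested.

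KPNB1, the importin beta of the classical pathway and the most abundant of its family, had 390.3, 260.5 and 274 TPM after MEN1 knockdown and 268, 285 and 279.7 TPM in the controls (log2 change 0.13 ± 0.142 SE, adjusted p 0.483). MEN1 shRNA replicate 1 alone stood far above the rest in TPM, and without it the log2 fold change was -0.05. The deposited coverage of KPNB1, not scaled for depth, was 361.3, 453.2 and 315.5 against 488.2, 676 and 426. Relative to the read pairs of each library, MEN1 shRNA replicate 1 was the lowest of all libraries in coverage. By that measure every MEN1 shRNA library lay below every control, a difference that was not tested. TNPO2, a close relative of transportin TNPO1, which imports RNA-binding proteins, fell from 142 ± 10.3 to 106 ± 6.31 TPM (log2 change -0.42, adjusted p 0.00224). TNPO1 and TNPO3, the latter the importer of SR splicing factors, had smaller falls (log2 fold changes -0.20 and -0.21, adjusted p 0.0151 and 0.0223). Their calls were lost without MEN1 shRNA replicate 2 (adjusted p 0.0504 and 0.0635) or control replicate 3 (0.0549 and 0.0734), and for TNPO3 also without control replicate 2 (0.0680). IPO8 (log2 change -0.31, adjusted p 0.00417) and IPO11, an importer of ubiquitin-conjugating enzymes (log2 change -0.36, adjusted p 0.00501), also fell. IPO9 and IPO13 did not pass (log2 change 0.16, adjusted p 0.0988 and log2 change 0.11, adjusted p 0.235). All 3 MEN1 shRNA libraries had more IPO9 than any control, 29.2 to 31.9 against 25.9 to 28.8 TPM.

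Exportins fell in 4 of 6 genes (66.7%, against 31.5% of all tested genes). XPO5, which carries precursor microRNAs out of the nucleus (ENSG00000124571, chromosome 6, 43522334 to 43576038, minus strand), had 67.8, 58.7 and 59.5 TPM against 108, 109 and 119.6 TPM (log2 change -0.85 ± 0.0768 SE, adjusted p 1.1e-04). XPO4, an exporter of the translation factor EIF5A, stood at 19.8, 18.7 and 18.3 against 28.9, 28.1 and 31.4 TPM (log2 change -0.61 ± 0.0764 SE, adjusted p 4.2e-04). XPO6, which removes actin from the nucleus, was at 84.8, 75.4 and 70.6 and 97.5, 109.5 and 104 TPM (log2 change -0.43 ± 0.0823 SE, adjusted p 0.00329). In each of the 3 genes the highest MEN1 shRNA library was below the lowest control. XPO5 overlaps POLR1C over most of its length on the opposite strand, so its value carries the unstated use of strand. The POLR1C row was also lower, at 75.9, 61.9 and 59.3 TPM against 95.5, 104.6 and 100.4 TPM.

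XPO7, the exportin of late erythroblasts (ENSG00000130227, chromosome 8, 21919662 to 22006585, plus strand), was lower by a small margin. It stood at 124, 120.4 and 118 TPM in the MEN1 shRNA libraries and 135, 135 and 143 TPM in the controls (log2 change -0.19 ± 0.0537 SE, adjusted p 0.0204), and the groups did not overlap. The mean was at 87.8% of the control level, and the call was lost without MEN1 shRNA replicate 2 (adjusted p 0.0579), MEN1 shRNA replicate 3 (0.0676) or control replicate 3 (0.0738), and with median-of-ratios scaling (log2 fold change -0.10, adjusted p 0.178). Among 20 terminal erythroid genes measured in the same libraries, 16 rose (80%) and 1 fell (5%), against 22.1% and 31.5% of all tested genes. The 3 that did not pass, named after their values were seen, were ANK1 (log2 fold change 0.09), UBE2O (-0.05) and FOXO3 (-0.09). Those with the largest changes included GYPB (log2 fold change 1.95), SLC4A1, the band 3 anion exchanger (1.93), and HEMGN (1.91), all higher, and the gene that fell, named after its value was seen, was TRIM58, a ubiquitin ligase of late erythroblasts (-0.99). XPO7 did not rise with that list in any fit: its log2 fold change ran from -0.21 to -0.10 over the alternatives.

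XPO1, the main exporter of proteins with leucine-rich signals, did not pass the threshold, at 195, 157 and 165 against 159, 191 and 192 TPM (log2 change -0.07 ± 0.104 SE, adjusted p 0.626). CSE1L, which returns importin alpha to the cytoplasm, was at 188 ± 3.24 against 179 ± 7.51 TPM (log2 change 0.07, adjusted p 0.283), and passed as higher with median-of-ratios scaling (adjusted p 0.0443). The values of XPO1 interleave between the groups.

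In the Ran cycle, only RCC1 passed the threshold, a share of 33.3% lower that is near the 31.5% of all tested genes. RCC1, the nucleotide exchange factor that loads Ran with GTP on chromatin (ENSG00000180198, chromosome 1, 28505943 to 28539300, plus strand), had 82.0, 60.9 and 63.9 TPM against 118, 126 and 126 TPM (log2 change -0.84 ± 0.110 SE, adjusted p 5.2e-04). MEN1 shRNA replicate 1 was the highest of its group and still well below the controls. The row of the small nucleolar RNA host gene SNHG3 overlaps that of RCC1 on the same strand, and it moved upward, from 46.2 ± 4.59 to 58.2 ± 5.76 TPM (log2 change 0.33 with adjusted p 0.0263). With SNHG3 and the other overlapping rows added, the log2 fold change of RCC1 was -0.43 (adjusted p 0.00370). RAN itself, the most abundant of the 55 members (ENSG00000132341, chromosome 12, 130872037 to 130877678, plus strand), stood at 546, 479.9 and 555 TPM after MEN1 knockdown and 536, 551 and 552 TPM in the controls (log2 change -0.05 ± 0.0671 SE, adjusted p 0.525). RANGAP1, the activator of GTP hydrolysis by Ran, was at 99.8, 76.2 and 75.2 against 85.7, 87.7 and 90.8 TPM (log2 change -0.08 ± 0.110 SE, adjusted p 0.549). In both genes the values overlap, and RANGAP1 passed as lower without MEN1 shRNA replicate 1 (log2 fold change -0.22, adjusted p 0.0174).

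By abundance the 55 transcripts spanned from KPNA5 to RAN, and TPM, being scaled by length, allows levels to be compared between genes. In the controls RAN had 546 ± 9.09 TPM, followed by KPNA2, KPNB1 and IPO5. With the MEN1 shRNA the order of the first 3 was the same and CSE1L took the next place, at 188 TPM, while IPO5 stood at 116 TPM. KPNA2 stood above KPNB1 in every MEN1 shRNA library and in control replicates 1 and 3, and below it in control replicate 2. The difference between these genes was not tested.

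**Figure D4:**
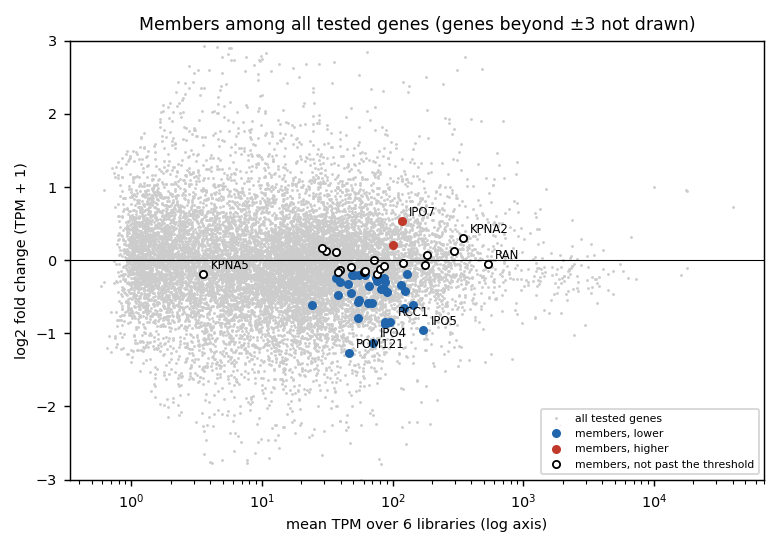
Log2 fold change of TPM + 1 against mean TPM over the 6 libraries (log axis) for the 14294 tested genes in grey and the 55 members in colour, 32 genes beyond an absolute value of 3 not drawn. Most members lie below 0, KPNA5 is far to the left and RAN farthest to the right, and IPO7 and AAAS are the red points above 0.

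Other genes of the pathway were taken from a list of 33 names outside the members. Of 31 that passed the filter, 15 fell, 3 rose and 13 did not pass, with a median log2 fold change of -0.20. In all 58.1% passed the threshold against 53.6% of all tested genes, and 48.4% were lower against 31.5%. RANGRF, a Ran-binding protein, had the deepest fall, from 46 ± 3.86 to 15.6 ± 1.07 TPM (log2 change -1.50, adjusted p 2.8e-05). POM121C, described above, and NXT1, the partner of the mRNA export receptor NXF1, followed among the named falls (log2 fold changes -1.17 and -0.84), with DDX19A, a helicase that releases mRNA at the cytoplasmic face (-0.78). DDX19B, on the same list and named after its value was seen, did not pass (log2 change 0.11, adjusted p 0.246 in limma). SENP2, a SUMO protease found at the pore, SNUPN, the snRNP import adaptor, and RANBP3, a cofactor of XPO1, were the genes that rose (log2 fold changes 0.69, 0.22 and 0.19); these 3 were named after their values were seen.

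Lists that bear on growth state were examined beside the members, and they differed in direction. They were chosen with earlier results of these data known, so their counts are descriptions. All 18 ribosome biogenesis genes fell, where 31.5% of all tested genes did. Their median log2 fold change was -0.96, led by the nucleolar protein NPM1 (-2.26), the transcription factor MYC (-1.65), NOP16 (-1.41) and RRP9 (-1.29). Of 16 S phase genes 7 rose and 1 fell, and of 17 G2/M genes 9 rose and none fell, with medians of 0.14 and 0.21. The shares higher were 43.8% and 52.9%, against 22.1% of all tested genes, and the share lower was 6.25% for S phase, against 31.5%. In either direction 50% and 52.9% passed the threshold, near the 53.6% of all tested genes. The S phase genes with the largest changes were GINS1, a subunit of the replicative helicase, which fell (log2 fold change -1.33), and RRM2 (0.76), FEN1 (0.59) and CDT1 (0.41), which rose. Among the G2/M genes they were the mitotic kinase CDK1 (0.67), KIF11 (0.57), CENPF (0.55) and UBE2C (0.40), all higher. The part of these lists in the changes of the transport genes was not tested.

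**Figure D5:**
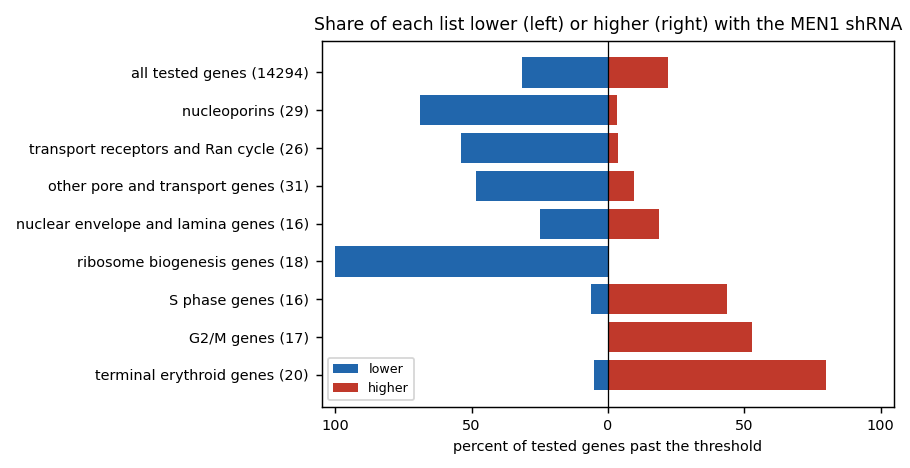
Percent of the tested genes of each list that passed the threshold as lower (left) or higher (right) with the MEN1 shRNA, with the number tested in brackets. The lists were chosen with earlier results of these data known. Nucleoporins (69.0% lower, 3.45% higher) and transport receptors with the Ran cycle (53.8% and 3.85%) sit between all tested genes (31.5% and 22.1%) and the ribosome biogenesis list (100% lower), while terminal erythroid genes were mostly higher (16 of 20).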

How the data were processed

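Poly(A) RNA from 6 HUDEP-2 libraries, 3 per shRNA, was sequenced, and 1 gene table per library was deposited. Per the submitters' processing notes, the build is hg38 and the tools named are FastQC, Trimmomatic, STAR 2.7.1a, Picard 2.20.4 and StringTie 2.0.4, with their roles and the annotation not given in the sources used here. The deposited TPM values sum to 1000000 per library, the deposited FPKM values are scaled for transcript length and library size, and the deposited coverage, a signal per base, is not scaled for depth. In control replicate 2 the deposited TPM and coverage hold residues just below 0, were therefore treated as a score in the unit check, and were set to 0. Of 58261 gene identifiers shared with GENCODE release 29, an annotation of GRCh38, 99.9% overlap their position there.

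Depth was taken from the ratio of coverage to FPKM and a read length of 151 bases, read pairs being the unit. The tables hold no read counts, and no count model was used. Genes that reached 1 TPM in 3 or more libraries were fitted as log2(TPM + 1) with limma 3.58.1 in R 4.3.3 (eBayes with a mean-variance trend, 2-sided, Benjamini-Hochberg over 14294 genes, threshold 0.05), and single-gene adjusted p-values come from this fit unless another setting, a library left out or a sum of rows is named beside them. Fold changes on this scale understate those of low genes. The exact permutation test cannot go below 0.1 with 3 against 3 libraries. On simulated data for this comparison (14294 genes), 100 genes were changed at each size. Of those changed by 1 on the log2 scale 86% were recovered, and of those changed by 0.5, 32%. In the measured data 7657 genes passed the threshold, so these shares do not give the recovery to be had here. Alternatives were pseudocount, filters, FPKM, scalings, weights, trend, thresholds, the replicate number as a block, 1 library left out, and sums with overlapping or near-copy rows. Named values follow a rule: MEN1, XPO7, XPO1, KPNA2, KPNB1, RAN, RCC1 and RANGAP1, up to 3 called members per role class with the largest change, and up to 4 per other list, of which 1 is not reported here. The members and lists were chosen with earlier results of these data known. Figures were made with Python 3.11.15 and matplotlib 3.10.9.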

Additional observations from a re-analysis of the deposited data

How the results depend on the processing

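The centring on the median of all genes and the sums with near-copy rows were chosen after the data were seen. Of 133 comparisons of counts with an alternative, 124 stayed within 1.5 times. Testing against a minimum log2 change of 0.5 (treat) gave 5 members, 5 lower and 0 higher, 2126 genes, 848 higher and 1278 lower, and 30 other listed genes, fewer by its own construction. Members higher numbered 4 with median-of-ratios scaling and 1 at an adjusted p of 0.01. Over all libraries 36 members passed the threshold; this ran from 29 to 35 with 1 library left out. Of 1103 single-gene comparisons 961 stayed as they were in direction and call, 115 lost the call, 11 gained one and 16 changed sign, none of the 16 in a member past the threshold. With median-of-ratios scaling the log2 fold change was 0.055 for TPR, 0.022 for XPO1, 0.034 for RAN and 0.0030 for RANGAP1. After removal of globin and mitochondrial genes from the TPM total it was 0.034 for TPR, 9e-04 for XPO1 and 0.012 for RAN, and with centring 0.038, 0.0044 and 0.016. NUP85 turned to -0.019 with array weights. With 1 library left out, NUP85 ran from -0.044 to 0.053, KPNA5 from -0.38 to 0.053, KPNB1 from -0.054 to 0.24 and RAN from -0.093 to 0.011.

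Deviations from the group means were not correlated within replicate numbers 1, 2 and 3 (0.017, -0.027 and -0.012), so the numbers were not taken as pairs. With the replicate number as a block, 32 members passed, 29 lower and 3 higher, 7012 genes and 72 other listed genes. Under the block KPNA2 passed as higher (adjusted p 0.0493), and NUP93 (0.0539), NUP210 (0.0565), NUP88 (0.0593), NUP42 (0.0769) and XPO7 (0.0600) did not pass.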

Other observations

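The nuclear envelope, which the pore spans, was examined with a list of 17 genes. Of 16 that passed the filter, 3 rose, 4 fell and 9 did not pass the threshold, shares of 18.8% and 25.0% against 22.1% and 31.5% of all tested genes. SUN2, an inner membrane protein that couples the nucleus to the cytoskeleton, had the largest change and rose from 34.5 to 58.5 TPM (log2 change 0.75 with adjusted p 8.1e-05 in limma). LMNB2, a B-type lamin, fell from 124 to 82.0 TPM (log2 change -0.60 with adjusted p 0.000955 in limma). TOR1A, an ATPase of the nuclear envelope lumen, rose (log2 fold change 0.43) and CHMP7, which recruits the ESCRT machinery that seals the envelope, fell (-0.35). LMNB1, the other B-type lamin, stood at 155 against 159 TPM, and LBR, the lamin B receptor, at 157 against 160.2 TPM, and neither passed the threshold (both named after their values were seen).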
